A study of Gallus gallus with 6 samples.

Results

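Kinetochore and mitosis genes were examined in cultured chicken primordial germ cells (PGCs), the cells that later form eggs and sperm, and in the adherent somatic cells derived from them. The genes were chosen by name, as those whose listed symbol is a CENP gene or 1 of a fixed set of kinetochore, checkpoint, condensin, spindle and mitotic kinase symbols. This gave 53 of the 23873 genes listed. The symbols AURKB, CDCA8, PLK4, PTTG1, SPC24, KIF4A, CENPA, CENPB and CENPR also fit the rule, but no gene under them is among the 53. The 6 libraries of polyA RNA came from 3 samples of undifferentiated PGCs, which grow in suspension, and 3 samples of somatic differentiated PGCs. All came from PGCs of embryo blood at Hamburger and Hamilton stage 16, and the labels give 1 medium for both groups. That medium held FGF2 at 10 ng/mL, the ROCK inhibitor H1152 at 0.2 μM and the myosin inhibitor Blebbistatin at 0.2 μM. The somatic differentiated samples were cells that adhered, enriched by aspirating the suspended cells and grown on for 2 to 3 weeks. The study profiled both states to find pathways that become active as PGCs turn somatic.

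The kinetochore is the protein machine that joins each centromere to the spindle. Its inner part sits on centromeric chromatin, its outer part grips microtubules, and the spindle checkpoint holds back anaphase until every chromosome is attached. Condensin folds chromosomes, kinesins and the passenger complex move and correct them, and separase cuts the cohesin that holds sister chromatids together. Many of these genes are transcribed mainly in G2 and mitosis, so their RNA is often read as a sign of cycling cells.

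Values were in TPM, a length-corrected share of each library that keeps no record of depth. Between 12342 and 12993 genes reached 1 TPM in a library. Across the 12996 genes tested, libraries correlated at 0.955 to 0.986 within groups and at 0.856 to 0.898 between them. Undifferentiated library 2 stood apart on the second principal component, at -45.5 against 31.9 and 17.3 for the other undifferentiated libraries. For all 12 germ cell genes every somatic differentiated value was below all undifferentiated values, where this held for 30.6% of all genes tested. The 12 genes summed to 6146 to 6789.8 TPM in undifferentiated libraries and to 1658 to 2326 TPM in the others. The 13 mesenchymal genes summed to 2069 to 2689.5 TPM and then to 22327 to 30278 TPM. VIM made up most of both sums, with means of 1876 and then 23411 TPM. For all 13 genes every somatic differentiated value was above all undifferentiated values, where this held for 25% of all genes tested. The 8 erythroid genes summed to 0.837 to 3.81 TPM and then to 3.56 to 20.3 TPM, with HBA1 and HBE1 at 0 in every library. The 8 leukocyte genes summed to 9.98 to 12.9 TPM and then to 10.1 to 19.4 TPM, with CD79B at 0 throughout. The 9 endothelial genes summed to 13.04 to 25.98 TPM and then to 57.1 to 107 TPM, but they did not move together. Means were higher for CDH5 (3.58, then 45.1 TPM) and ERG (1.81, then 17.5 TPM), among others. They were lower for KDR (4.91, then 1.49 TPM), TEK and TIE1. The part of these other cell types, and of PGCs left among the adherent cells, in the results was not tested.

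Most kinetochore and mitosis genes were moderately lower in somatic differentiated cells, and few changed by as much as 2-fold. Their summed level was 5274, 4814 and 5429 TPM in undifferentiated libraries 1 to 3, and 3359, 3872 and 3059 TPM in somatic differentiated libraries 1 to 3. The groups did not overlap, and the somatic differentiated mean was 0.663 of the undifferentiated mean. In bulk RNA, fewer cells in mitosis and less of these transcripts per cell cannot be told apart.

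The limma test was run per gene on log2(TPM + 1), and p-values were adjusted by Benjamini-Hochberg over all 12996 genes. Fold changes are on this scale, which understates the change of low genes. At an adjusted p under 0.05, 27 of the 53 genes fell (50.9%), where 22% of all genes tested fell. SPC25 was the 1 gene of the 53 that rose (1.89%), where 17.9% of all genes rose. Of the other 25, 21 lay below 0 and 4 above it. Among all genes tested, passed or not, 55.4% lay below 0. BIRC5 and INCENP were also past 2-fold, 2 of 53 (3.77%), where 7.77% of all genes were called lower at that size. By the limma test 0 of the 53 were called higher at 2-fold, where 13.2% of all genes were. At an unadjusted p under 0.05, 36 of the 53 genes (67.9%) differed in either direction, where 50.5% of all genes did. All 3 somatic differentiated values lay below all undifferentiated values for 37 of the 53 genes, or 69.8%, where 30.6% of all genes did. They lay above for NDC80 and SPC25, 3.77%, where 25% of all genes did.

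**Figure D1:**
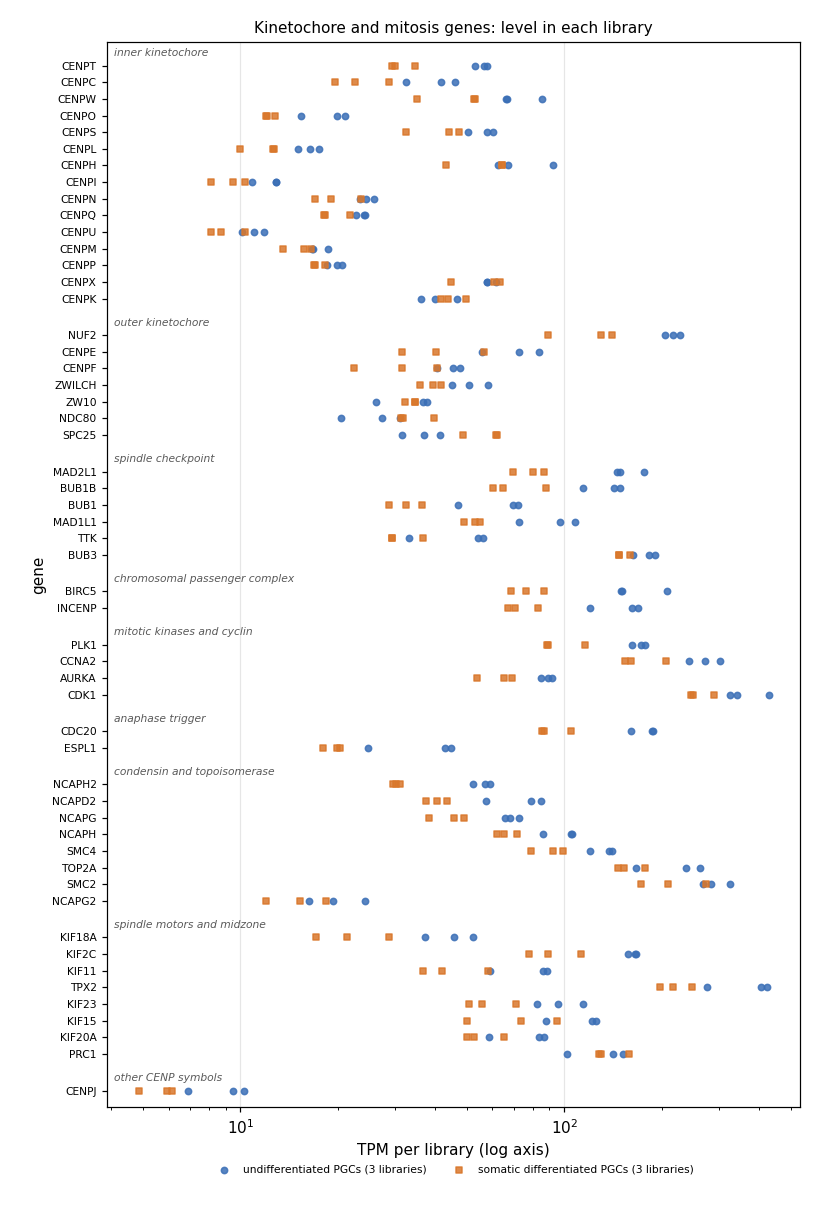
TPM of each of the 53 genes in each library, on a log axis, in role groups; blue circles are undifferentiated and orange squares somatic differentiated libraries. The squares lie left of all circles in 37 genes and right of them in NDC80 and SPC25.

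The median log2 change of the 53 genes was -0.56, beside -0.11 for all genes tested, and 47 of the 53 lay below the latter. TPM is relative, so scaling moves all genes together. Rescaling by the median of ratios shifted the median of all genes from -0.106 to 0.0052 and that of the 53 genes to -0.45. The distance between both medians was -0.454 with deposited TPM and -0.453 after rescaling. Rescaling divides each library by a single factor, so this distance could hardly change. With quantile normalization, which does not use a single factor, the distance was -0.41. Among all genes past the threshold, 44.96% were higher with deposited TPM and 55.9% after rescaling. After rescaling, 24 of the 53 genes fell (45.3%), where 17.5% of all genes fell. NDC80 and SPC25 rose (3.77%), where 22.2% of all genes rose. None of the 53 was then called lower at 2-fold by limma (0 of 53), where 6.17% of all genes were.

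These counts moved when single libraries were left out. Such a fit rests on fewer libraries, so a lost call alone does not show that the result depended on the library left out. The same limit holds for all such fits below. Without undifferentiated library 3, 12 of the 53 genes fell, and all genes that fell made up 11.9%. The count was 17 without undifferentiated library 1 (14.01% of all genes) and 17 without somatic differentiated library 1 (14.1%). It was 18 without somatic differentiated library 3 (15.9%) and 27 without somatic differentiated library 2 (17.8%). Without undifferentiated library 2, 33 genes fell (31.8% of all genes). The 6 genes called lower at 2-fold were then BUB1, BUB1B, ESPL1, INCENP, KIF18A and NCAPD2. Without somatic differentiated library 2 the called genes also numbered 6, namely BIRC5, BUB1B, CDC20, INCENP, KIF18A and MAD2L1. BIRC5 alone was called without somatic differentiated library 3, and BIRC5, CDC20 and MAD2L1 without undifferentiated library 1. The shares of all genes above are for adjusted p alone. None is given here at 2-fold for these fits, so the 2-fold counts cannot be set against all genes.

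**Figure D2:**
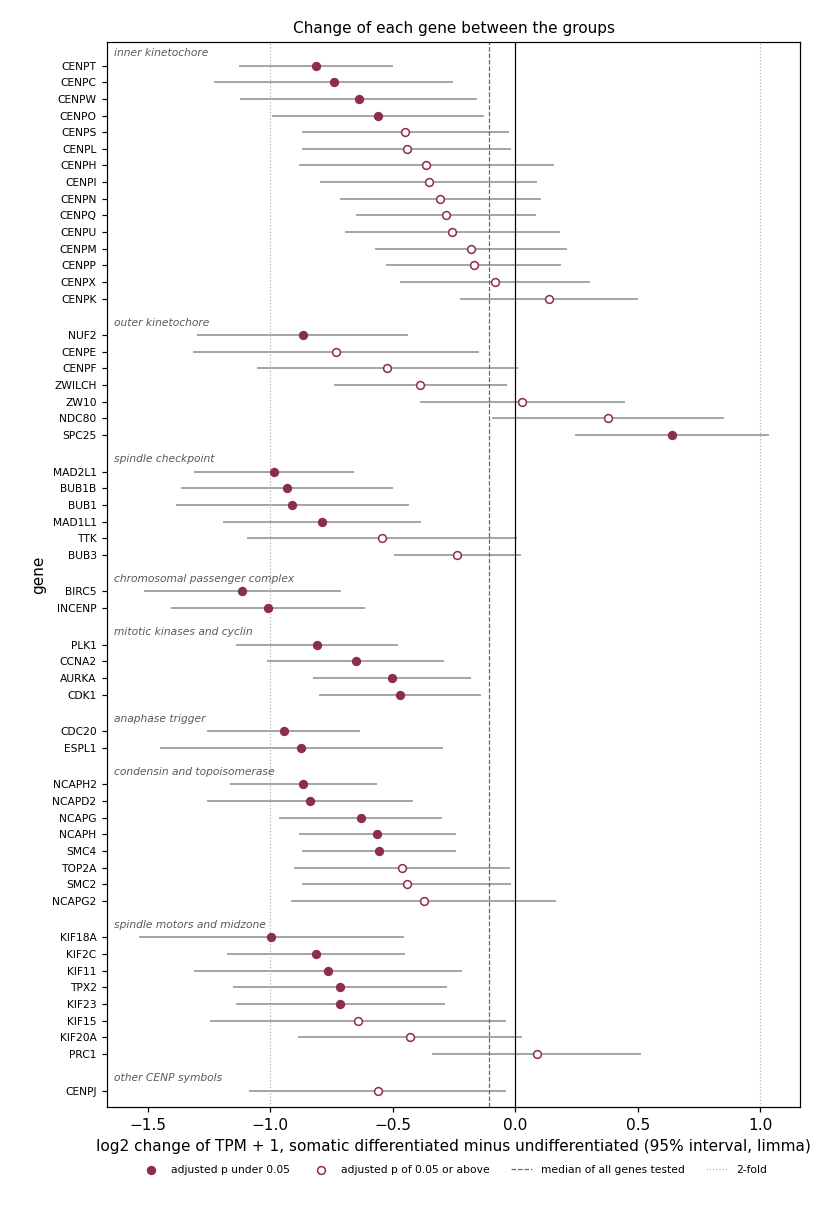
Log2 change of each gene with its 95% interval from limma, in role groups; filled points passed an adjusted p of 0.05 and dotted lines mark 2-fold. The dashed line is the median of all genes tested, -0.11, and 47 of the 53 points lie left of it.

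The genes spanned a wide range of levels. CDK1, the kinase that drives entry into mitosis, had the highest mean over the 6 libraries, 314 TPM. It was followed by TPX2 (295 TPM), SMC2 (256 TPM), CCNA2 (223 TPM) and TOP2A (191 TPM). The lowest was CENPJ, a centriole assembly gene that carries a CENP name, at 7.27 TPM. All 53 passed the filter on low values, a mean of at least 1 TPM.

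In the inner kinetochore 4 of 15 genes fell (26.7%, near the 22% of all genes) and 0 rose, with a median change of -0.35. CENPT (ENSGALG00000028900, chromosome 11, 860584 to 882868, minus strand, build GRCg6a as for all positions here), which reaches from centromeric DNA to the Ndc80 complex, had the lowest change of the group. Undifferentiated libraries 1 to 3 held 57.9, 53.02 and 56.5 TPM of it, and somatic differentiated libraries 1 to 3 held 30.1, 34.5 and 29.5 TPM. The groups were far apart beside their spread, and CENPT fell by 0.81 on the log2 scale (SE 0.13, limma adjusted p 0.00438). Its histone-fold partners were at -0.64 (CENPW), -0.45 (CENPS) and -0.083 (CENPX), and of these CENPW passed, with an adjusted p of 0.0435. CENPC, the scaffold that binds CENP-A nucleosomes, fell from 40.1 ± 6.98 to 23.6 ± 4.69 TPM (SD, n = 3; log2 change -0.74, limma adjusted p 0.0274). CENPO, of the CENP-O/P/Q/U group, fell from 18.7 ± 2.98 to 12.3 ± 0.472 TPM (SD, n = 3; -0.56, limma adjusted p 0.0469). Its partners CENPQ (-0.28), CENPU (-0.26) and CENPP (-0.17) did not pass.

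CENPK was at the other end of the inner kinetochore. It measured 36.1, 46.6 and 40.01 TPM in undifferentiated and 43.7, 49.6 and 41.6 TPM in somatic differentiated libraries. The groups overlapped, and its change of 0.14 (95% interval -0.22 to 0.50) had a limma adjusted p of 0.500. CENPH and CENPI, its partners in the CENP-H/I/K group, were at -0.36 (interval -0.88 to 0.16) and -0.35 (interval -0.79 to 0.089). The ratio of CENPK to CENPH within a library was 0.562 ± 0.0707 and 0.805 ± 0.145 in undifferentiated and somatic differentiated cells (SD, n = 3), without overlap. That ratio was chosen after the values were seen, as were the other ratios, and none was tested. Ratios computed but not printed here were NCAPH to NCAPH2 and ZW10 to ZWILCH, which did not overlap either. Others not printed, NCAPG to NCAPG2, CDK1 to CCNA2, MAD2L1 to MAD1L1 and BIRC5 to INCENP, did overlap between the groups. CENPL (-0.44), CENPN (-0.31) and CENPM (-0.18) did not pass.

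Of the calls in the inner kinetochore, only that of CENPT held whichever library was left out. CENPW missed the threshold whichever library was left out (adjusted p 0.0544 to 0.0886, log2 change -0.74 to -0.45). Without somatic differentiated library 2 CENPW missed it though its change, -0.74, lay further below 0 than the -0.64 of all libraries. CENPO passed without undifferentiated library 2 and missed it without any of the other libraries (adjusted p up to 0.161). CENPC missed it without undifferentiated library 1 (-0.64, adjusted p 0.0919) or 3 (-0.71, adjusted p 0.0945), and without somatic differentiated library 1 (-0.72, adjusted p 0.0821) or 3 (-0.62, adjusted p 0.0766).

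Of the 7 outer kinetochore genes, 1 fell and 1 rose (14.3% each), where 22% of all genes fell and 17.9% rose. NUF2 (ENSGALG00000003438, chromosome 8, 5837470 to 5849103, minus strand), NDC80 (ENSGALG00000014801, chromosome 2, 101172292 to 101191007, minus strand) and SPC25 (ENSGALG00000010900, chromosome 7, 18928191 to 18932697, plus strand) encode subunits of the Ndc80 complex, the main microtubule grip of the kinetochore. NUF2 measured 217, 227 and 205 TPM in undifferentiated and 130.2, 141 and 89.2 TPM in somatic differentiated libraries. It fell by 0.87 (SE 0.18, limma adjusted p 0.0101), with no overlap. NDC80 measured 27.4, 20.5 and 31.2 TPM in undifferentiated and 31.8, 39.6 and 31.4 TPM in somatic differentiated libraries. The lowest somatic differentiated value was only just above the highest undifferentiated value. Its change of 0.38 (95% interval -0.095 to 0.85) had a limma adjusted p of 0.172, and of 0.0474 after median of ratios rescaling.

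SPC25 measured 31.5, 41.4 and 37 TPM in undifferentiated and 62.1, 61.7 and 48.9 TPM in somatic differentiated libraries. Every somatic differentiated value was higher, and SPC25 rose by 0.64 (SE 0.17, limma adjusted p 0.0221). Its change stayed between 0.54 and 0.77 in all 16 alternative fits. The limma adjusted p was 0.0745 without undifferentiated library 1 and 0.0690 without undifferentiated library 3. It was 0.0821 and 0.0691 without somatic differentiated libraries 1 and 2.

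The RNA levels of NDC80 and SPC25 relative to NUF2 were higher in somatic differentiated libraries, and protein was not measured. The ratio of SPC25 to NUF2 was 0.145, 0.182 and 0.181 in undifferentiated and 0.477, 0.438 and 0.548 in somatic differentiated libraries. The ratio of NDC80 to NUF2 was 0.127, 0.0903 and 0.152, and then 0.244, 0.281 and 0.352. Neither ratio overlapped between the groups. That had to follow, since NUF2 was lower and NDC80 and SPC25 higher in somatic differentiated libraries, each without overlap. The lack of overlap is therefore no support beyond the single genes. A ratio within a library does not depend on how that library is scaled. The ratio of SPC25 to NDC80 did overlap, at 1.45 ± 0.491 and 1.69 ± 0.227 (SD, n = 3). In level per length, NUF2 was the highest of the 3 in each of the 6 libraries.

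**Figure D3:**
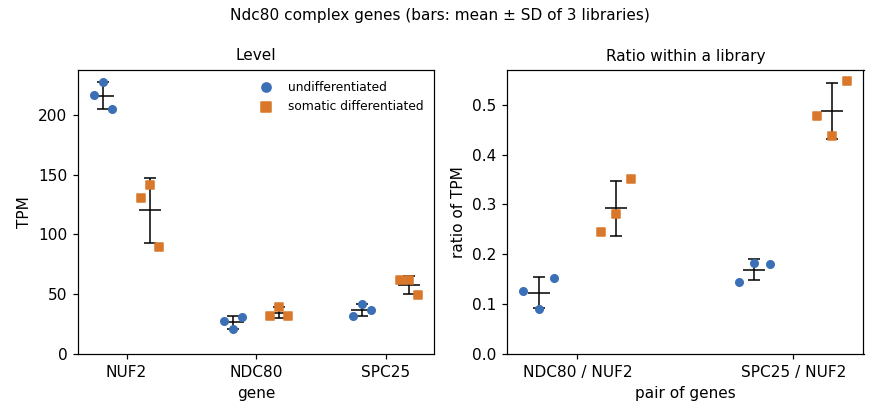
Left, TPM of NUF2, NDC80 and SPC25 in each library; right, the ratio of NDC80 and of SPC25 to NUF2 within each library; bars are the mean ± SD of 3 libraries. Somatic differentiated values lie below all undifferentiated values for NUF2 and above them for NDC80 and SPC25. Both ratios must therefore separate the groups.

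The remaining outer kinetochore genes did not pass. CENPE, a kinesin that carries chromosomes to the spindle equator, was at -0.73 with a limma adjusted p of 0.0518, and its groups overlapped. It passed without undifferentiated library 2 (-0.89, adjusted p 0.0315) and without somatic differentiated library 2 (-0.95, adjusted p 0.0248). With all libraries kept, CENPE passed after median of ratios rescaling (limma adjusted p 0.0474) and quantile normalization (0.0277). The same held with array weights (0.00517) and with a filter at a mean of 5 TPM (0.0499). CENPF, a large kinetochore protein of late G2 and mitosis, was at -0.52 (limma adjusted p 0.104). ZW10 and ZWILCH, which with ROD recruit dynein to kinetochores, were at 0.029 and -0.39. ZW10 measured 37.6, 26.3 and 36.5 TPM, and then 32.2, 34.5 and 34.6 TPM. Undifferentiated library 2 was the low one, and without it the change of ZW10 was -0.13.

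In the spindle checkpoint 4 of 6 genes fell (66.7%, beside 22% of all genes), with a median change of -0.85. MAD2L1 (ENSGALG00000011967, chromosome 4, 54534509 to 54537977, plus strand), whose protein inhibits the anaphase-promoting complex, measured 145, 176 and 149 TPM in undifferentiated libraries and 80.2, 86.3 and 69.5 TPM in the somatic group. The groups were well separated, and MAD2L1 fell by 0.98 (SE 0.14, limma adjusted p 0.00264), to 50.2% of its undifferentiated mean. BUB1B, which works with it in the mitotic checkpoint complex, fell from 135 ± 18.4 to 70.9 ± 14.8 TPM (SD, n = 3; -0.93, limma adjusted p 0.00795). BUB1, a kinase that marks kinetochore chromatin, fell from 62.8 ± 13.9 to 32.5 ± 3.797 TPM (SD, n = 3; -0.91, limma adjusted p 0.0122; -0.83, adjusted p 0.0528 without undifferentiated library 3). MAD1L1, the platform for MAD2L1, fell from 92.5 ± 18.1 to 52.4 ± 2.97 TPM (SD, n = 3; -0.79, limma adjusted p 0.0112).

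BUB3, the shared partner of BUB1 and BUB1B, was at the other end of the checkpoint. It measured 163, 183 and 191 TPM, and then 148, 147 and 159 TPM. The groups did not overlap but lay close, and the change of -0.24 (95% interval -0.50 to 0.023) had a limma adjusted p of 0.127. The ratio of BUB3 to BUB1 was 2.97 ± 0.837 and 4.71 ± 0.747 (SD, n = 3), without overlap. The highest undifferentiated ratio (3.89) lay close to the lowest somatic differentiated ratio (4.05). TTK, the kinase that starts checkpoint signalling, measured 54.4, 33.1 and 56.1 TPM, and then 29.4, 36.7 and 29.3 TPM. Undifferentiated library 2 was within the somatic differentiated range. TTK was at -0.54 with a limma adjusted p of 0.102, and without that library it passed (-0.79, adjusted p 0.00827).

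The chromosomal passenger complex corrects wrong attachments and later guides cytokinesis. Both of its listed subunits fell past 2-fold, where 7.77% of all genes were called lower at that size. BIRC5 (survivin; ENSGALG00000008713, chromosome 3, 15519544 to 15520683, minus strand) measured 149.7, 207 and 151 TPM in undifferentiated and 76.5, 86.7 and 68.5 TPM in somatic differentiated libraries. It fell by 1.11 (SE 0.17, limma adjusted p 0.00346). The listed BIRC5 gene covers only 1140 bases, and whether this row is the whole gene or a partial or processed copy is uncertain. INCENP (ENSGALG00000007537, chromosome 5, 17337682 to 17356167, plus strand), the scaffold of the complex, measured 169, 120.0 and 162 TPM, and then 70.5, 83.04 and 67.2 TPM. It fell by 1.01 (SE 0.17, limma adjusted p 0.00462). Undifferentiated library 2 was the high one for BIRC5 and the low one for INCENP, and every somatic differentiated value was lower for both. The adjusted p of both genes stayed under 0.05 in all 16 alternatives. The 2-fold line was less firm: BIRC5 was at -0.96 without undifferentiated library 2, and INCENP reached -0.92 in the fits without 1 library.

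All 4 mitotic kinase and cyclin genes fell, where 22% of all genes did, with a median change of -0.58. PLK1 (ENSGALG00000006110, chromosome 14, 7296562 to 7302521, plus strand), the polo kinase of spindle assembly and mitotic exit, had the lowest change. It measured 172, 162 and 177 TPM, and then 88.9, 116 and 88.4 TPM. The groups were well apart, and PLK1 fell by 0.81 (SE 0.14, limma adjusted p 0.00525). CCNA2, a cyclin partner of CDK1, measured 271, 242 and 303 TPM, and then 161, 207 and 154 TPM. Its groups did not overlap, and it fell by 0.65 (limma adjusted p 0.0149). CCNA2 missed the threshold without undifferentiated library 3 (-0.57, adjusted p 0.0607) or somatic differentiated library 1 (-0.60, adjusted p 0.0558).

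CDK1 (ENSGALG00000003085, chromosome 6, 9409873 to 9417895, minus strand) measured 326, 428 and 341 TPM, and then 249, 290.5 and 247 TPM. Its groups did not overlap, and its fall of 0.47 (SE 0.14, limma adjusted p 0.0342) was the smallest among the 27. AURKA, the spindle pole kinase, fell from 88.7 ± 3.71 to 62.6 ± 8.02 TPM (SD, n = 3; -0.50, limma adjusted p 0.0251). After median of ratios rescaling CDK1 was at -0.35 (limma adjusted p 0.240) and AURKA at -0.39 (0.0697). Both also missed the threshold without undifferentiated library 3 (limma adjusted p 0.0738 and 0.0950), somatic differentiated library 1 (0.107 and 0.0649) or somatic differentiated library 3 (0.0940 and 0.0542). AURKA did so without undifferentiated library 1 as well (0.0761).

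Both genes of the anaphase trigger fell, where 22% of all genes did. CDC20 (ENSGALG00000009971, chromosome 8, 20029182 to 20034557, plus strand), the activator of the anaphase-promoting complex that the checkpoint holds back, measured 161, 187 and 186 TPM, and then 85.4, 105 and 86.7 TPM. It fell by 0.94 (SE 0.13, limma adjusted p 0.00264), with no overlap. ESPL1 (separase) measured 44.8, 24.8 and 42.9 TPM, and then 17.9, 19.9 and 20.3 TPM, a log2 change of -0.87 (limma adjusted p 0.0279). Undifferentiated library 2 was low for ESPL1, though still above all somatic differentiated values, and without it the change was -1.14. ESPL1 missed the threshold when any of the other 5 libraries was left out (limma adjusted p 0.0628 to 0.103).

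Of 8 condensin and topoisomerase genes, 5 fell (62.5%, beside 22% of all genes), with a median change of -0.56. The listed subunits particular to condensin I, NCAPD2 (-0.84), NCAPG (-0.63) and NCAPH (-0.56), all fell. Of condensin II, NCAPH2 fell and NCAPG2 did not pass. NCAPH2 measured 59.1, 56.9 and 52.2 TPM, and then 29.7, 31.05 and 30.2 TPM, with narrow groups far apart (log2 change -0.86, SE 0.13, limma adjusted p 0.00312). NCAPG2 measured 24.2, 16.3 and 19.3 TPM, and then 15.3, 18.4 and 11.96 TPM. Its groups overlapped, and its change of -0.37 (95% interval -0.91 to 0.17) had a limma adjusted p of 0.230. NCAPD3, a condensin II gene outside the naming rule, fell from 60.6 ± 18.7 to 31.2 ± 3.78 TPM (SD, n = 3; -0.89, limma adjusted p 0.0306).

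The subunits shared by both condensins differed in their calls. SMC4 fell from 133 ± 10.6 to 90.2 ± 10.1 TPM (SD, n = 3; -0.55, limma adjusted p 0.0162). SMC2 measured 284, 269 and 326 TPM, and then 209, 273 and 173 TPM. Somatic differentiated library 2 overlapped the undifferentiated values, and SMC2 was at -0.44 with a limma adjusted p of 0.0893. It passed without that library (-0.62, adjusted p 0.0264). TOP2A, which untangles sister chromatids, measured 238, 167 and 262 TPM, and then 152, 178 and 147 TPM. Undifferentiated library 2 was within the somatic differentiated range. TOP2A was at -0.46 with a limma adjusted p of 0.0876, and it passed without that library (-0.65, adjusted p 0.00831). NCAPH, NCAPG and SMC4 missed the threshold without undifferentiated library 3 (limma adjusted p 0.0726, 0.0584 and 0.0693). NCAPH and SMC4 did so without undifferentiated library 1 (0.0618 and 0.0579), and NCAPH without somatic differentiated library 1 (0.0648).

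Among spindle motors and midzone proteins, 5 of 8 genes fell (62.5%, beside 22% of all genes), with a median change of -0.71. KIF18A (ENSGALG00000012160, chromosome 5, 4100525 to 4143339, minus strand), a kinesin that limits chromosome swings at the metaphase plate, measured 45.7, 37.2 and 52.4 TPM, and then 21.3, 28.8 and 17.1 TPM. Its groups did not overlap, and it fell by 0.99 (SE 0.23, limma adjusted p 0.0140; -0.88, adjusted p 0.0584 without undifferentiated library 3). KIF2C, a microtubule depolymerase at centromeres, fell from 163 ± 5.1 to 93.4 ± 17.8 TPM (SD, n = 3; -0.81, limma adjusted p 0.00686). TPX2, the activator of AURKA, measured 421, 277 and 407 TPM, and then 198, 247 and 217 TPM. Its groups did not overlap, and it fell by 0.71 (limma adjusted p 0.0212). KIF11, which pushes spindle poles apart, and KIF23, of the midzone, also fell, with log2 changes of -0.76 and -0.71 (limma adjusted p 0.0366 and 0.0196). KIF15 (-0.64) and KIF20A (-0.43, listed as a pseudogene) did not pass.

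Calls of TPX2, KIF11 and KIF23 missed the threshold without any 1 of 4 libraries. The limma adjusted p were 0.0683, 0.106 and 0.0549 without undifferentiated library 1, and 0.0772, 0.121 and 0.0750 without undifferentiated library 3. They were 0.0718, 0.103 and 0.0656 without somatic differentiated library 1, and 0.0599, 0.107 and 0.0586 without somatic differentiated library 3.

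The row listed as PRC1, a bundler of midzone microtubules, had the highest change of the spindle genes. It measured 152, 102 and 141 TPM, and then 129.9, 159 and 128 TPM. The groups overlapped, and the change of 0.087 (95% interval -0.34 to 0.51) had a limma adjusted p of 0.725. Without undifferentiated library 2, its lowest, the change was -0.086. The listed PRC1 gene covers only 1426 bases, and the row may be a partial or processed copy, so its level and its ratio are uncertain as measures of PRC1. The ratio of PRC1 to KIF23 was 1.35 ± 0.201 and 2.36 ± 0.136 (SD, n = 3), without overlap. CENPJ, the centriole gene, measured 10.3, 6.88 and 9.52 TPM, and then 5.93, 6.16 and 4.86 TPM. Its groups did not overlap, and it did not pass, at -0.56 with a limma adjusted p of 0.0826; it passed without undifferentiated library 2 (-0.72, adjusted p 0.0215).

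**Figure D4:**
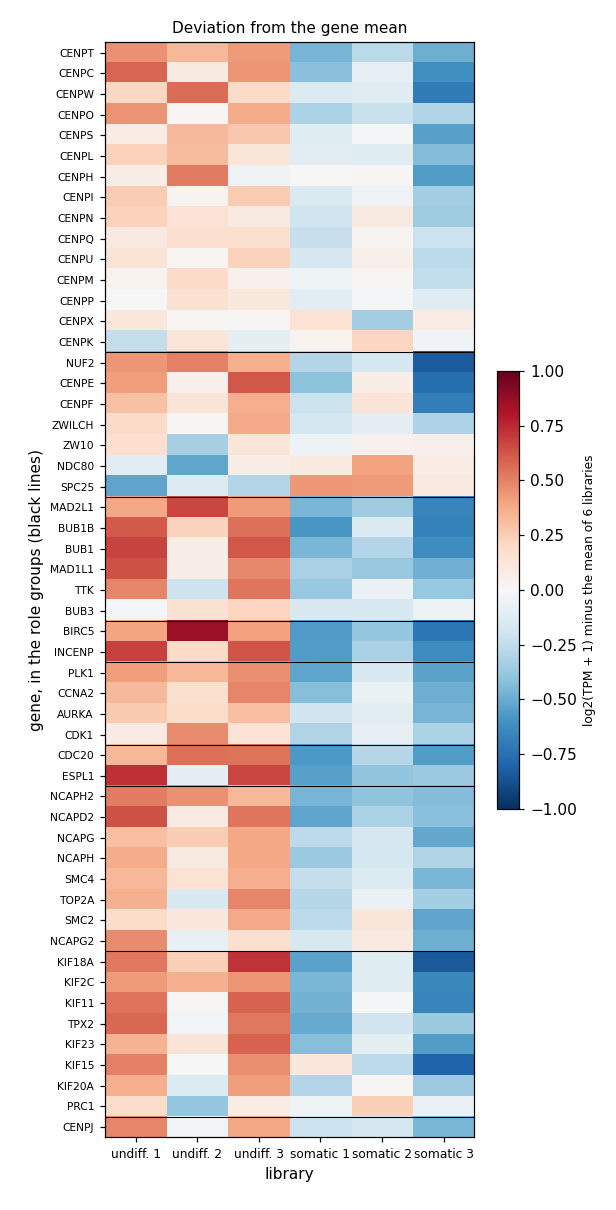
Deviation of log2(TPM + 1) from each gene's mean over the 6 libraries, red above and blue below, with black lines between role groups. Undifferentiated library 2 is the lowest of its group in 35 of 53 rows, and somatic differentiated library 2 the highest of its group in 45. The shares of all genes with these ranks are not given.

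Within the somatic differentiated group the libraries kept a common order over most of these genes. Library 2 was the highest of the 3 for 45 of the 53 genes and library 3 the lowest for 42. The median deviation of the 53 genes was -0.29, -0.10 and -0.46 (log2) in somatic differentiated libraries 1 to 3. It was 0.35, 0.13 and 0.38 in undifferentiated libraries 1 to 3, where library 2 was the lowest for 35 genes and the highest for 14. Shares of all genes with these ranks are not given here. The counts can therefore not be told apart from a shift of whole libraries. Germ cell genes summed to 1658, 2326 and 1751 TPM over somatic differentiated libraries 1 to 3, highest in library 2 but lowest in library 1. Sums of DNA replication genes (2413, 2610 and 2252 TPM) and of other mitosis genes (2717, 3022 and 2608 TPM) were highest in library 2 and lowest in library 3. The mesenchymal sum was also highest in library 2 (22327, 30278 and 29493 TPM), and the erythroid and leukocyte sums in library 1. The part of any of these lists in the order was not tested. The median SD (log2) of the 53 genes was 0.19 among undifferentiated libraries and 0.17 among somatic ones, beside 0.25 and 0.21 for all genes tested. The 53 genes averaged 7.27 TPM or more, while the genes tested reached down to a mean of 1 TPM. The part of level in this difference was not tested.

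Chromosomes 3 and 4 held 7 of the 53 genes each. The closest pair was NUF2 and CENPL, 82311 bases apart on chromosome 8 and at -0.87 and -0.44. KIF23 and PRC1, 715894 bases apart on chromosome 10, were at -0.71 and 0.087.

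Some related genes carry other names in the table, and their values were looked up after those of the 53 had been seen. The centromeric histone gene, spelled CenpA, measured 24.3 ± 5.63 and 18.3 ± 5.21 TPM (SD, n = 3; log2 change -0.40, limma adjusted p 0.269). KIF4B, for which RefSeq gives KIF4A as a synonym, measured 195 ± 46.02 and 143 ± 15.8 TPM (-0.42, limma adjusted p 0.134). PTTG2, with the synonym PTTG1 (securin), measured 119 ± 29.1 and 91.9 ± 1.09 TPM (-0.34, limma adjusted p 0.161). ITGB3BP, with the synonym CENPR, measured 13.6 ± 1.71 and 11.6 ± 2.41 TPM (-0.23, limma adjusted p 0.419). All 4 lay below 0, where 55.4% of all genes tested did, and none of these changes passed the threshold. The limma interval of each of the 4 included 0, so their direction is uncertain.

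Of 50 mitosis genes outside the naming rule, 26 fell (52%) and 2 rose (4%), where 22% and 17.9% of all genes did. Their median change was -0.57. FBXO5, an inhibitor of the anaphase-promoting complex, fell from 108 ± 6.56 to 38.5 ± 10.7 TPM (SD, n = 3; -1.49, limma adjusted p 0.00259). WEE1, which restrains CDK1, fell from 156 ± 22.7 to 63.1 ± 10.3 TPM (SD, n = 3; -1.29, limma adjusted p 0.00220). The listed CCNB1, for which RefSeq gives CCNB2 as a synonym, fell from 279 ± 22.5 to 153 ± 18.9 TPM (SD, n = 3; -0.87, limma adjusted p 0.00316). Those that rose were SKA2, of the Ska complex that works beside the Ndc80 complex on microtubules, and ANLN (anillin), a scaffold of the cleavage furrow. SKA2 measured 65.4, 68.3 and 70.02 TPM in undifferentiated and 136, 139.9 and 152 TPM in somatic differentiated libraries. Its groups were far apart, and it rose by 1.06 (SE 0.11, limma adjusted p 0.00109). ANLN rose from 53.1 ± 10.8 to 90.4 ± 12.4 TPM (SD, n = 3; 0.77, limma adjusted p 0.0195).

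Of 43 DNA replication genes, 27 fell (62.8%) and 0 rose by limma, where 22% of all genes fell and 17.9% rose. Their median was -0.62. DBF4 and CDT1, which act in origin firing and licensing, fell, with log2 changes of -1.23 and -1.22 (limma adjusted p 0.000800 and 0.00160). Of 9 cohesin genes, 3 fell (33.3%), with a median of -0.26, among them ESCO2 (-1.20) and SMC3 (-0.76). Of 30 cell cycle regulators, 9 fell (30%, beside 22% of all genes) and 7 rose (23.3%, beside 17.9%). TFDP1 and TFDP2, partners of E2F factors, fell, with log2 changes of -1.22 and -1.09 (limma adjusted p 0.00301 and 0.0136). The CDK inhibitor CDKN2C measured 1.15, 1.17 and 3.24 TPM, and then 36.4, 39.8 and 40.3 TPM, a log2 change of 3.88 (limma adjusted p 0.000485). CDKN2A measured 6.595, 6.92 and 11.2 TPM, and then 105, 108 and 104 TPM (3.57, limma adjusted p 0.000249). Every somatic differentiated value of both was far above the undifferentiated values. Of 6 meiosis genes tested, 1 fell (16.7%, below the 22% of all genes), MAEL (-1.62), and the median was -0.40. Differences between these lists and the 53 genes were not tested.

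**Figure D5:**
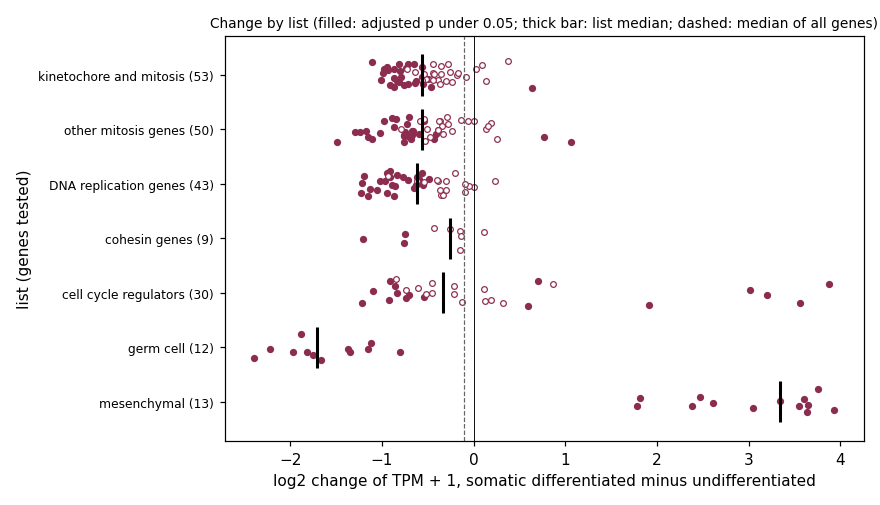
Log2 change of each gene by list, with the number tested in parentheses; filled points passed an adjusted p of 0.05, thick bars are list medians and the dashed line is the median of all genes. The kinetochore and mitosis median is -0.56, that of other mitosis genes -0.57, of replication genes -0.62 and of germ cell genes -1.71.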

How the data were processed

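PolyA RNA libraries from 6 samples, 3 per group, were grouped and numbered by their titles. The authors deposited one table of TPM per gene; per the submitters' processing notes, the tools included FastQC 0.11.9, Trimmomatic 0.39, Trim Galore 0.6.6, cutadapt 3.1, STAR 2.7.3a and RSEM 1.3.1, with build GRCg6a. The annotation release is not given in the sources used here. Coordinates are those of the table. Each column summed to 1000000 TPM, and 0 value columns were left unmapped. TPM carries no depth, so no counting error was computed.

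Genes averaging 1 TPM or more over the 6 libraries (12996) entered the fit in R 4.3.3, made by limma 3.58.1 on log2(TPM + 1), with a variance trend and no covariates, two-sided, Benjamini-Hochberg adjusted over all. A gene rose or fell at an adjusted p under 0.05, and was called at an absolute log2 change of at least 1. Whether replicates were separate cultures is not fully stated; p-values measure the spread between these libraries, which may be technical. The fit was tested on simulated data with independent noise, no shift of a whole library and far fewer changed genes than here. That test therefore does not show how the calls hold in these data. Tables and plots used Python 3.11.15, pandas 2.3.3, numpy 2.4.6 and matplotlib 3.10.9.

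The members and lists were chosen with earlier results of these data known. Values in every library were given for genes that rose or were called, the lowest and highest change of each role group, the 5 most abundant and the 5 changes at either end; TTK was added after its values were seen. In other lists, up to 2 genes per direction were named; CCNB1 and NCAPD3 were added after their values were seen. Alternatives changed the pseudocount (0.1, 5), filter, scaling, variance model, library weights and replicate block, or left out 1 library. Near-identical or overlapping genes can share reads. Promoter motifs were not analysed here.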

Additional observations from a re-analysis of the deposited data

How the results depend on the processing

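The 16 alternatives comprised 10 other settings and 6 fits without 1 library. The median log2 change of the 53 genes ran from -0.62 to -0.45 in the former and from -0.66 to -0.46 in the latter. Without 1 library, 12 to 33 genes fell, 0 to 1 rose and 1 to 6 were called lower, while 1542 to 4150 of all genes fell. SPC25 missed the threshold on leaving out library 1 of either group, undifferentiated 3 or somatic 2. With array weights 38 of the 53 genes fell (71.7%), where 4683 of all genes did (36.0%), and 6 of the 53 were called lower at 2-fold. For the alternatives, the share of all genes called lower at 2-fold is given here only for median of ratios scaling (6.17%). With a pseudocount of 5 or without the 10 most abundant genes 1 was called lower (BIRC5), with quantile normalization 1 other (KIF18A), and with median of ratios scaling 0, where 2 rose. In none of these 16 alternatives was any of the 53 called higher at 2-fold. The share of all genes called higher at 2-fold is not given here for the alternatives. Of 28 genes that passed, 12 passed in all 16: BIRC5, INCENP, MAD2L1, MAD1L1, BUB1B, CDC20, PLK1, NUF2, CENPT, NCAPH2, NCAPD2 and KIF2C. Of the 25 that had not passed, 14 passed in at least 1 alternative, among them CENPE, TTK, SMC2, TOP2A and CENPJ. Both counts were made for the 53 genes only, so they cannot be set against all genes. Directions reversed for 3 genes that had not passed. CENPX was at 0.032 with median of ratios scaling and ran from -0.18 to 0.071 without 1 library, above 0 without somatic differentiated library 2. PRC1 was at -0.066 with array weights and ran from -0.086 to 0.20, below 0 without library 2 of either group. ZW10 was at -0.020 with quantile normalization and -0.13 with array weights, and ran from -0.13 to 0.12, below 0 without undifferentiated library 2. The cause was not tested. With the replicate number as a block, 20 genes fell, SPC25 rose and 2211 of all genes fell. Whether the numbers pair the samples is not given in the labels: deviations of same-numbered libraries correlated at 0.192, 0.013 and 0.140, and libraries 1 and 3, but not 2, correlated best with their own number, a hint from the data and not the design. Depth is unknown from TPM.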

Other observations

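Undifferentiated library 2 did not shift all 53 genes one way. The 35 genes for which it was the lowest undifferentiated library had a median genomic span of 18.2 kb in the table, and the 14 for which it was the highest had 6.44 kb. Among the 14 were BIRC5, MAD2L1 and CDK1, and among the 35 were ESPL1, TPX2, TOP2A and INCENP. Spans are not given here for all genes, so whether this difference is particular to the 53 genes is not known. Genomic span includes introns and is not transcript length, and the part of either in this library was not tested.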
